A study of Oryza sativa with 156 samples.

Results

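Leaves of rice plants in the early phase of a moderate drought were compared with leaves of irrigated plants on the same day, day 4 of treatment. The libraries were chosen by course, day and arm as the labels give them: 3 drought and 3 control libraries of the moderate course on day 4, which are 2 of the 52 groups of course, arm and day in the series, each of 3 libraries. All plants were of the cultivar IR64, grew singly in pots of calcined clay in a growth chamber, and took up culture solution through a hose from a connected supply pot. For drought plants of the moderate course the supply was cut 14 days after sowing and the pots drained through the hose, while irrigation of the control plants went on. The series also holds a severe course, whose pots stood higher than the hose and lost water more quickly, with its own irrigated controls, and each course was sampled daily from day 0 to day 12. Polyadenylated leaf RNA was counted per gene. The title of the series speaks of marker genes for predicting how much drought a plant perceives, and the day 4 comparison asks which genes differed at this stage, by how much, and whether the difference was the same on other days and in the severe course.

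When soil dries, plants make the hormone abscisic acid, which closes the stomata and switches on genes for protective proteins, osmolytes and water transport, while genes of growth and photosynthesis are often lowered. A leaf sample mixes mesophyll, epidermis, guard cells and veins. In bulk RNA a smaller share of a cell type and less RNA per cell cannot be told apart. The count table names genes only by locus identifiers, of which 55801 of 55986 have the form LOC_Os. The gene table at hand matched 0 of them, so no gene name, role or sequence is given, the leaf could not be checked against marker genes, and lists of drought genes by product could not be placed.

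Total counts on day 4 of the moderate course were 14.1, 19.0 and 18.0 M (mega counts) in the drought libraries and 24.5, 20.7 and 18.3 M in the control libraries, within the 6.42 to 26.2 M of the series. The 11684 identifiers whose number places them on chromosomes 10 to 12 had no count in any library of the series, so every result below covers chromosomes 1 to 9 alone. Over 10607 genes, log2 levels correlated with r from 0.986 to 0.992 among the drought libraries, from 0.978 to 0.989 among the control libraries and from 0.946 to 0.973 between the arms. The first principal component held 63.4% of the variance and placed the drought libraries at 16.7, 15.0 and 24.7 and the control libraries at -16.8, -15.9 and -23.6. In the severe course the 3 control libraries of day 4 correlated with each other at only 0.900 to 0.956. Libraries 1 and 2 were the farthest apart (0.900), and library 3 was about as close to library 1 (0.950) as to library 2 (0.956). With the moderate control libraries of day 4, severe control library 1 correlated at 0.974 to 0.983. Severe control library 3 did so at 0.933 to 0.939 and severe control library 2 at 0.880 to 0.887. The comparisons that turn on libraries 2 and 3 are given with and without them. The labels leave unsaid whether each replicate is another plant. The p-values therefore cover only the spread between libraries of the same group, which may be technical. This spread was estimated over all 52 groups of the series unless a fit on fewer libraries is named.

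On day 4 of the moderate course, 1757 of 19338 genes tested (9.09%) differed between drought and control at an adjusted p below 0.05 (edgeR's quasi-likelihood test with Benjamini-Hochberg adjustment). Of these, 823 genes (4.26%) rose in drought and 934 (4.83%) fell. Most changes were small. The median rise was 0.74 on the log2 scale (1.67-fold), and the median fall was of size 0.65 (1.57-fold), while the median over all genes tested was 0.01. Among the genes that rose, 288 did so by less than 1.5-fold, 246 by at least 2-fold and 51 by at least 4-fold. Among the genes that fell, 403 did so by less than 1.5-fold, 236 by at least 2-fold and 92 by at least 4-fold. Changes of at least 4-fold were thus more numerous among fallers than among risers, although the number of genes past 2-fold was similar.

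**Figure D1:**
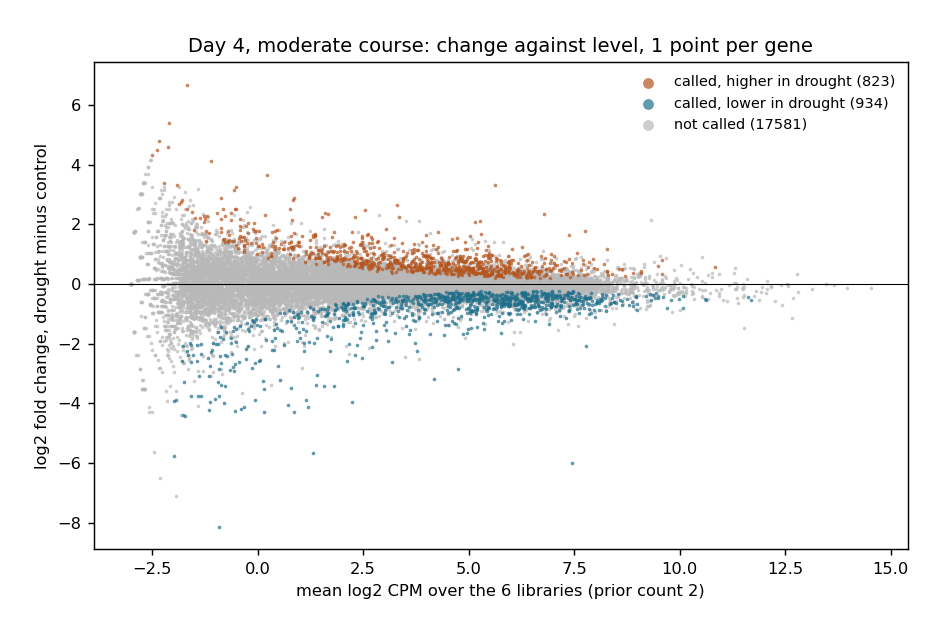
Change against level for the 19338 genes tested on day 4 of the moderate course. Each point is a gene, the horizontal axis is its mean log2 CPM over the 6 libraries and the vertical axis its log2 fold change, drought minus control, with 823 genes called higher, 934 called lower and 17581 not called. The called genes lie closer to 0 at high levels and farther from 0 at low levels.

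The libraries of the 2 arms did not overlap in 1740 of the 1757 genes called. Over all genes tested, the 3 drought libraries all lay above the 3 control libraries in 3627 genes (18.8%) and all below in 3623 (18.7%). The number of calls depended on single libraries. Without drought library 3 it was 441 and without control library 3 it was 545, without drought library 1, control library 1 or drought library 2 it was 892, 1015 or 1075, and it was 3314 when edgeR was fitted to the 6 libraries alone.

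Among called genes at or above a mean log2 CPM of 1 with no overlap between the arms, the largest rise was that of LOC_Os03g54130. It stood at 146.5, 153.3 and 176 CPM (counts per 1e+06 counts of the library) in the drought libraries, against 19.9, 10.2 and 17.7 CPM in the control libraries. Every drought library lay far above every control library, and the mean was 158.6 ± 15.4 CPM in drought and 16.0 ± 5.09 CPM in control (SD, n = 3 each). The log2 fold change of LOC_Os03g54130 was 3.31 (SE 0.78, edgeR adjusted p = 0.0042), a 9.92-fold rise, and it was called whichever of the 6 libraries was left out.

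LOC_Os09g36200 was next. Its levels were 17.7, 17.5 and 41.2 CPM in the drought libraries and 3.57, 3.56 and 5.20 CPM in the control libraries. Drought libraries 1 and 2 were close together and library 3 was higher, with no overlap with the controls. The log2 fold change of LOC_Os09g36200 was 2.64 (SE 0.68, edgeR adjusted p = 0.0083), and 2.09 with an adjusted p of 0.0935 without drought library 3.

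Under the same conditions of level and overlap, the largest fall was that of LOC_Os09g36680. Its levels were 9.70, 53.5 and 34.3 CPM in the drought libraries and 423.6, 5214 and 680.3 CPM in the control libraries. All control libraries lay above all drought libraries, but control library 2 was several times higher than the other controls. The log2 fold change of LOC_Os09g36680 was -6.01 (SE 1.80, edgeR adjusted p = 0.023), and without control library 2 it was -4.08 with an adjusted p of 0.129. The call was also lost without drought library 1, 2 or 3 (adjusted p = 0.1001, 0.0603 and 0.110). LOC_Os09g36700 showed the same order of libraries at a lower level, with 0, 1.44 and 0.351 CPM in drought and 4.98, 88.2 and 5.79 CPM in control. Its log2 fold change was -5.67 (SE 1.73, edgeR adjusted p = 0.025), and without control library 2 it was -3.05 with an adjusted p of 0.338. Without drought library 1, 2 or 3 this call was lost too (adjusted p = 0.0955, 0.0566 and 0.127). By their numbers the 2 falling genes lie close together. How reads that match both would have been counted is not given in the sources used here.

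**Figure D2:**
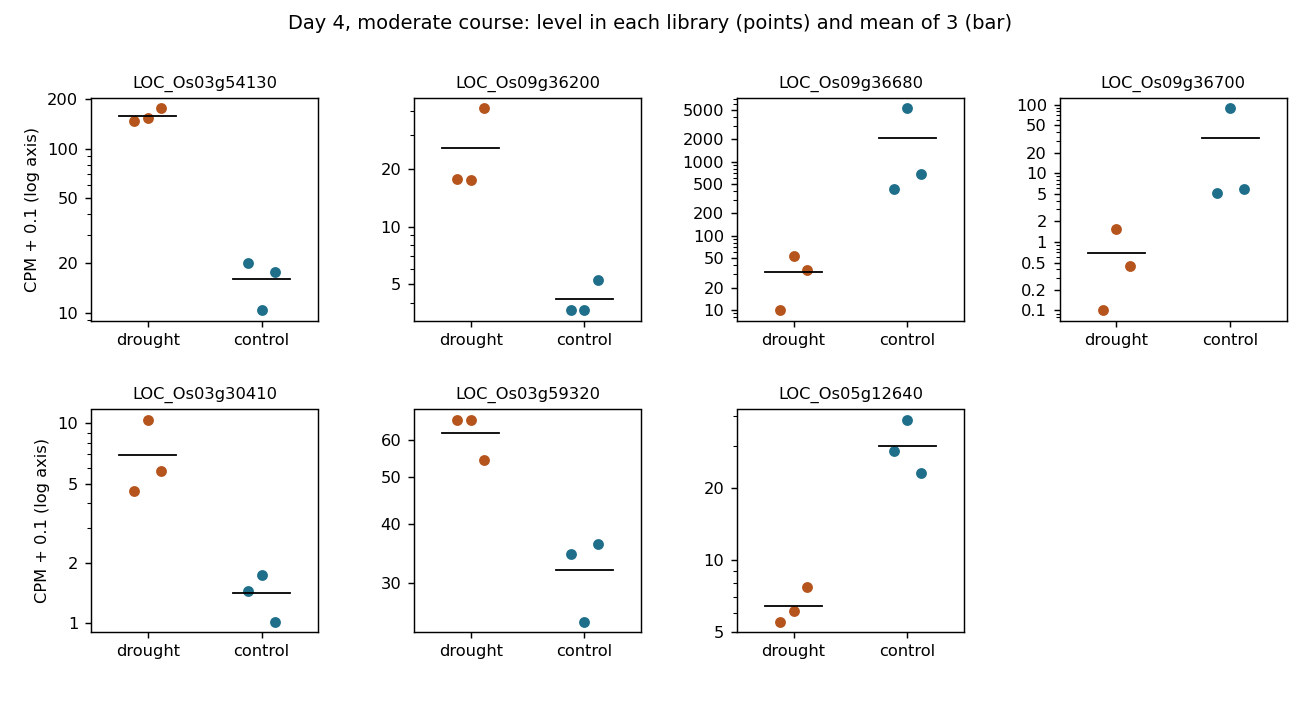
Level of 7 genes in each day 4 library of the moderate course, as CPM plus 0.1 on a log axis, with drought left and control right and a bar at the mean of the 3 libraries. The points of drought and control do not overlap in any of the 7 genes, and control library 2 stands highest by far in LOC_Os09g36680 (5214 CPM) and LOC_Os09g36700 (88.2 CPM).

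Genes that rose made up 4.14, 4.25 and 4.63% of all counts in the drought libraries and 2.69, 2.72 and 2.58% in the control libraries, so each drought library stood above each control library. Genes that fell made up 6.53, 6.92 and 6.31% of counts in the drought libraries, against 8.99, 9.12 and 10.0% in the control libraries. These shares follow from how the genes were chosen and are given as a description. Genes that fell therefore held more of the counts, in either arm, than genes that rose.

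Split into 4 classes of equal size by their mean level over the 6 libraries, the genes were called more often the higher their level. The class with the lowest levels, with a median of 0.517 CPM, had 219 of 4835 genes called (4.53%), 111 higher and 108 lower. In the second class 405 genes (8.38%) were called, 234 higher and 171 lower, and in the third 478 (9.89%), 245 higher and 233 lower. In the class with the highest levels, with a median of 75.4 CPM, 655 of 4835 genes were called (13.6%), and there fallers outnumbered risers by 422 to 233. The median standard error of the log2 fold change went down from class to class, at 0.55, 0.25, 0.15 and 0.13, and so did the median size of the called changes, at 1.97, 0.90, 0.57 and 0.52. Of the 1046 genes with an estimated change of at least 2-fold that were not called, 877 belonged to the lowest class, where the median standard error was the largest.

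By the chromosome in the identifier, the share of tested genes that were called ran from 7.70% on chromosome 9 to 10.2% on chromosome 1, around the 9.09% of all genes. Pairs of neighbours in identifier order were both called in 173 of 19329 cases, with 60 pairs both higher, 48 both lower and 65 in opposite directions. The next gene in order was called for 9.85% of called genes, close to the 9.09% of all genes.

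The genes called on day 4 were then followed through the other days of the moderate course, each day with its own drought and control libraries. On day 3, 806 of the 823 risers and 921 of the 934 fallers had the same sign as on day 4, and 229 risers (27.8%) and 301 fallers (32.2%) were called in the same direction, when 2.18% of all genes were called higher and 2.14% lower. These shared calls made up 54.4% of all genes called higher and 72.9% of all called lower on day 3. On day 5, 277 risers (33.7%) and 366 fallers (39.2%) were called in the same direction, when 6.36% of all genes were called higher and 6.39% lower. None of the genes called on day 4 was called in the opposite direction on day 3 or day 5. Across all genes tested, which are not independent replicates, the log2 fold changes of day 4 correlated with r = 0.54 with those of day 3 and with r = 0.38 with those of day 5.

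The median log2 fold change of the risers was 0.48, 0.33 and 0.48 on days 1, 2 and 3, 0.74 on day 4, 0.40 on day 5 and between 0.20 and 0.36 on days 6 to 12. The median of the fallers was -0.61, -0.55 and -0.50 on days 1, 2 and 3, -0.65 on day 4, -0.42 on day 5 and between -0.20 and -0.09 on days 6 to 12. Both medians therefore kept their sign on every day, and from day 6 on the median of the fallers was nearer to 0 than that of the risers. The day 4 medians are the values by which the genes were chosen and are not comparable with those of other days.

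Already on day 0 the arms differed in the same direction in many of these genes. On that day 754 of the 823 risers and 891 of the 934 fallers had the sign of day 4, with medians of 0.34 and -0.41. Called in the same direction on day 0 were 119 risers (14.5%) and 231 fallers (24.7%), when 1.68% of all genes were called higher and 3.01% lower. How the day 0 sampling was timed against the stop of the water supply is not given in the sources used here.

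**Figure D3:**
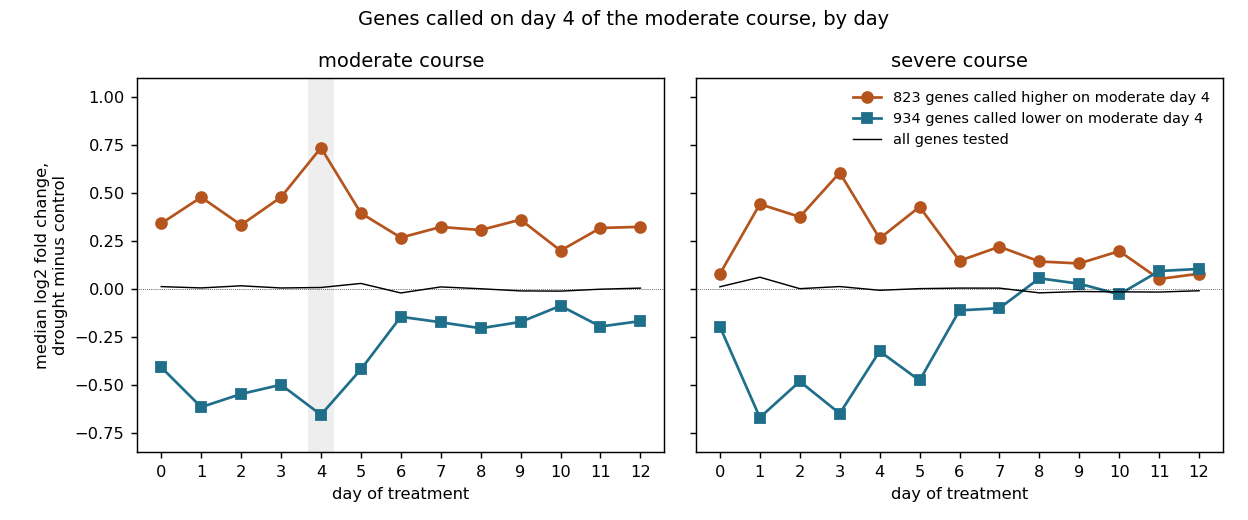
Median log2 fold change, drought minus control, on each day from 0 to 12 in the moderate course (left) and the severe course (right), for the 823 genes called higher (circles) and the 934 called lower (squares) on day 4 of the moderate course and for all genes tested (line). In the moderate course the circles stay between 0.20 and 0.74 and the squares between -0.65 and -0.09, while on days 8, 9, 11 and 12 of the severe course the squares lie above 0. The shaded day is the one on which the genes were chosen.

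The same sign on all 12 days of treatment of the moderate course was found for 405 of 823 risers (49.2%) and 367 of 934 fallers (39.3%), against 1885 of the 17581 genes tested and not called on day 4 (10.7%). On all 24 days of both courses, 146 risers and 106 fallers had the same sign, against 553 of the 17581 genes tested and not called on day 4. Without severe control libraries 2 and 3 of day 4, the risers and fallers of one sign came to 158 and 103. The median gene of either group was called in its direction on 3 of the 12 moderate days, day 4 included. Day 4 was the only one of the 12 moderate days to call 204 of the risers and 166 of the fallers. Calls on 6 or more moderate days were reached by 102 risers and 40 fallers, and 3 risers and 2 fallers were called in the opposite direction on some other moderate day. Days called were not counted for the other genes.

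LOC_Os03g54130 was above control on all 12 days of the moderate course, with a log2 fold change between 0.16 on day 10 and 4.18 on day 1. It was called on 5 of the days. On day 0 it was already called higher, with a log2 fold change of 2.63 (edgeR adjusted p = 0.035). That day it stood at 44.65 ± 60.78 CPM in drought and 7.11 ± 4.89 CPM in control (SD, n = 3 each). The SD in drought was thus larger than the mean. The effect of day 4 minus that of day 0 was 0.68 (SE 1.05) for this gene. In the severe course its log2 fold changes ran from 5.50 on day 3 to -2.11 on day 11, when it was called lower. It had the sign of moderate day 4 on 7 of the 12 severe days. In the moderate course LOC_Os09g36200 was less steady, with log2 fold changes from -0.15 to 3.61. It stood at 43.5 ± 45.5 CPM in drought on day 5, against 3.81 ± 1.24 CPM in control (SD, n = 3 each), and at 3.73 ± 1.33 CPM in drought on day 6, against 3.73 ± 1.80 CPM in control. LOC_Os09g36680 was below control on all 12 days with log2 fold changes from -7.36 to -2.23, and was called on 3 of them.

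Among genes called on day 4 with one sign on all 24 days, ranked by the smallest effect of any day from day 1 on, LOC_Os03g30410 and LOC_Os03g59320 came first in the upward direction and LOC_Os05g12640 and LOC_Os09g36700 in the downward one. LOC_Os03g30410 had 4.50, 10.3 and 5.71 CPM in the drought libraries of day 4 and 1.36, 1.66 and 0.921 CPM in the control libraries. The groups did not overlap, and the log2 fold change was 2.38 (SE 0.73, edgeR adjusted p = 0.026). The call was lost without any 1 of the libraries other than drought library 1, with values from 1.95 to 2.57 and adjusted p from 0.0532 to 0.127. On day 0 the log2 fold change of LOC_Os03g30410 was already 2.45 (SE 0.95), and it was not called. On day 5 its control mean was only 0.0430 ± 0.0372 CPM and its drought mean 5.52 ± 4.37 CPM, and the log2 fold change of that day, 6.79, was the largest of its moderate course over a control close to 0.

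LOC_Os03g59320 had 66.1, 65.8 and 54.2 CPM in the drought libraries and 34.5, 24.8 and 36.1 CPM in the control libraries on day 4. Drought lay above control in every library, with a log2 fold change of 0.96 (SE 0.33, edgeR adjusted p = 0.048), and this was the smallest of its 12 moderate days, on which the values reached 1.88. The call was lost whichever of the 6 libraries was left out, with values from 0.81 to 1.06 and adjusted p from 0.0884 to 0.173. LOC_Os05g12640 had 5.41, 5.99 and 7.62 CPM in the drought libraries and 28.5, 38.7 and 23.1 CPM in the control libraries. All drought libraries were well below the controls, with a log2 fold change of -2.24 (SE 0.58, edgeR adjusted p = 0.0082), and the call held whichever of the 6 libraries was left out. Over the 12 moderate days the log2 fold change of LOC_Os05g12640 ran from -3.46 to -0.98 and was called on 8 of them. Its level on day 12 was 1.82 ± 0.641 CPM in drought and 10.5 ± 2.19 CPM in control, and on day 0 it was 33.3 ± 19.3 CPM in drought and 74.4 ± 1.63 CPM in control, so both arms stood lower on day 12 than on day 0.

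**Figure D4:**
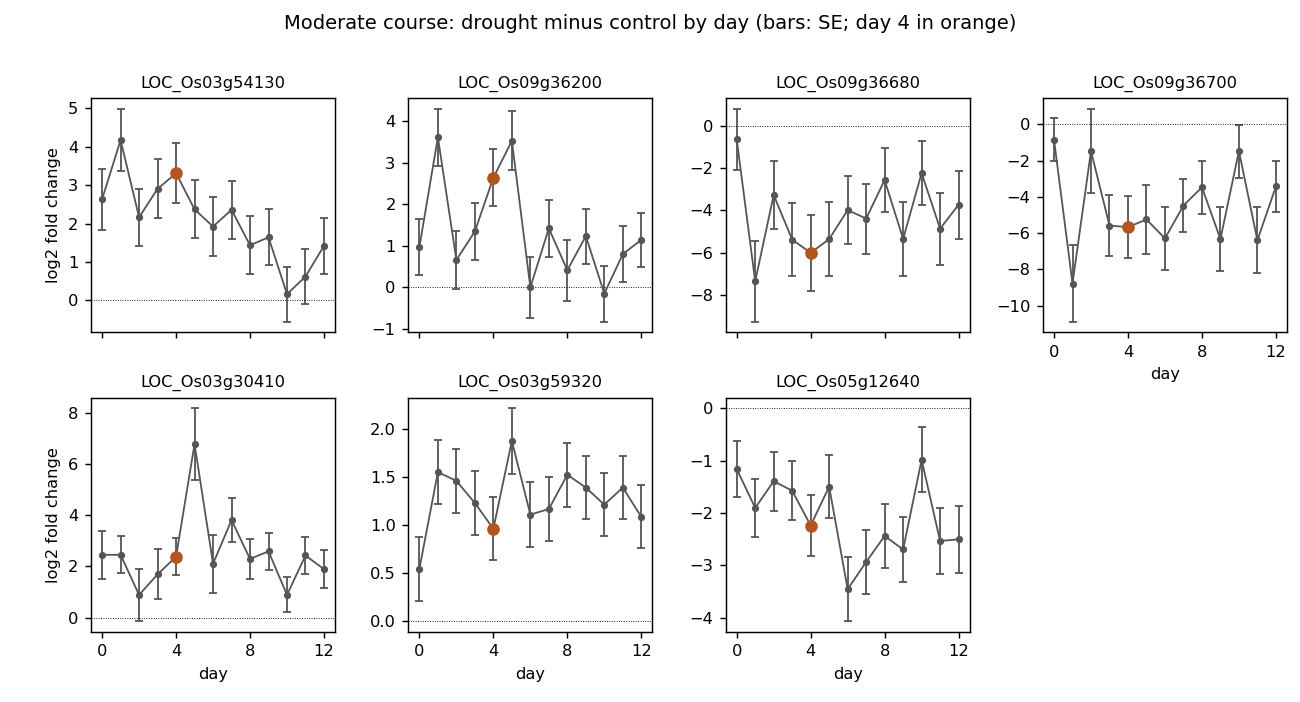
Log2 fold change, drought minus control, on each day of the moderate course for 7 genes, with bars for the standard error and day 4 in orange. LOC_Os03g54130 is at 4.18 on day 1 and 0.16 on day 10, LOC_Os09g36200 has its high values on days 1, 4 and 5, and LOC_Os05g12640 stays between -3.46 and -0.98 from day 1 on.

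Whether day 4 itself differed from other days was tested on the difference of the effects. Against the mean effect of days 3 and 5, edgeR's quasi-likelihood test called 0 genes, with 730 at an unadjusted p below 0.05 and a smallest adjusted p of 0.367, and on the libraries compared alone edgeR called 1 and DESeq2 6. Against the mean effect of days 1 to 3 and 5 to 12 it also called 0 genes, with 1511 at an unadjusted p below 0.05 and a smallest adjusted p of 0.103, and on the libraries compared alone edgeR called 1 and DESeq2 5. Against the effect of day 0 it called 0 genes, with 884 at an unadjusted p below 0.05, and on the libraries compared alone edgeR called 1 and DESeq2 80. The median standard errors of these differences were 0.27, 0.23 and 0.31 on the log2 scale, against 0.22 for the day 4 effect, and a missing call does not show that the effects were equal. Within the arms, drought on day 4 differed from the mean of drought on days 3 and 5 in 1 gene, with 780 genes at an unadjusted p below 0.05. Control on day 4 differed from the mean of control on days 3 and 5 in 1 gene as well, with 2378 genes at an unadjusted p below 0.05.

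On day 4 of the severe course, 1052 genes (5.44%) were called higher and 2082 (10.8%) lower. Of the genes called on moderate day 4, 187 risers (22.7%) and 208 fallers (22.3%) were called in the same direction, 50 risers were called lower and 1 faller higher. The shared calls made up 17.8% of the genes called higher and 9.99% of those called lower in the severe course. The medians were 0.26 for the risers and -0.32 for the fallers. Across genes, moderate day 4 correlated with severe day 4 at r = 0.23, with severe day 3 at r = 0.54 and with severe day 5 at r = 0.50. Without severe control libraries 2 and 3 together, the severe course had 18 calls on day 4 in place of 3134 and called 0 of the risers and 0 of the fallers, the medians were 0.30 and -0.25, and r with moderate day 4 was 0.33. That fit left 1 severe control, taken to vary like the other groups. Without control library 2 alone the severe course had 979 calls, and without drought library 2 it had 1908.

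Among the 7 genes named above, 5 were called in the same direction on day 4 of both courses. LOC_Os03g30410, LOC_Os03g59320, LOC_Os05g12640 and LOC_Os09g36700 were chosen by effects that include severe day 4, so their direction there was fixed by the choice. LOC_Os03g54130 had 56.6, 88.2 and 63.7 CPM in severe drought and 13.2, 4.43 and 12.8 CPM in severe control, a log2 fold change of 2.75 (SE 0.79, edgeR adjusted p = 0.0085). LOC_Os09g36200 had 19.9, 67.5 and 10.9 CPM in severe drought and 5.96, 3.64 and 4.46 CPM in severe control, a log2 fold change of 2.80 (SE 0.70, edgeR adjusted p = 0.0019). LOC_Os05g12640 had 3.40, 3.64 and 5.84 CPM in severe drought and 23.3, 17.9 and 12.3 CPM in severe control, a log2 fold change of -2.06 (SE 0.62, edgeR adjusted p = 0.013). LOC_Os03g59320 had 64.0, 74.4 and 42.1 CPM in severe drought and 20.5, 15.5 and 22.7 CPM in severe control, a log2 fold change of 1.62 (SE 0.34, edgeR adjusted p = 0.00017). LOC_Os09g36680 had 96.0, 2.00 and 1.39 CPM in severe drought and 1681, 1770 and 146.2 CPM in severe control, a log2 fold change of -5.18 (SE 1.74, edgeR adjusted p = 0.028). In each of these 5 genes the severe drought and severe control libraries did not overlap. Without severe control libraries 2 and 3 the severe log2 fold changes were 2.39 for LOC_Os03g54130, 2.47 for LOC_Os09g36200, -2.45 for LOC_Os05g12640, 1.55 for LOC_Os03g59320 and -5.67 for LOC_Os09g36680, and none was called (edgeR adjusted p from 0.486 to 0.785). The difference between the courses was 0.56 (SE 1.05) for LOC_Os03g54130, -0.16 (SE 0.96) for LOC_Os09g36200, -0.17 (SE 0.84) for LOC_Os05g12640, -0.65 (SE 0.47) for LOC_Os03g59320 and -0.83 (SE 2.09) for LOC_Os09g36680, none of them called.

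The difference between the courses, the moderate minus the severe effect of day 4, was called in 1212 genes (6.27%), in 1115 of which the moderate effect was the higher and in 97 the lower. Of these genes 138 were risers, all with the higher effect in the moderate course, and 32 were fallers, 31 with the lower effect there. The other 1042 were called in neither direction on moderate day 4. Risers and fallers were chosen by the moderate effect, which also enters the difference, so these directions partly follow from the choice. The number of calls changed with the severe controls and with the fit. Without severe control libraries 2 and 3 they came to 9, without library 2 alone to 568 and without library 1 to 2075. With edgeR fitted to the 12 libraries compared alone, 0 genes were called, with 2807 at an unadjusted p below 0.05, and DESeq2 on the same libraries called 607. Compared directly, moderate and severe drought libraries of day 4 differed in 151 genes and moderate and severe control libraries in 2910, or 150 without severe control libraries 2 and 3. LOC_Os01g57960, which an earlier look at these data had found to split the series into a high and a low set of libraries, stood at 35.0 to 39.95 CPM in moderate drought and 17.6 to 20.5 CPM in moderate control, and at 296 to 346 CPM in severe drought and 246 to 303 CPM in severe control. Every severe library of day 4 thus stood far above every moderate library in this gene, and the moderate arms did not overlap. Where the sets divide over the series is not shown here. The part of this split in the differences between courses was not tested.

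Genes were ranked here if the difference was called, the mean log2 CPM was 1 or more and the moderate libraries did not overlap. The largest positive difference between the courses among them was that of LOC_Os02g11070. It had 3.16, 4.05 and 4.76 CPM in moderate drought and 1.66, 1.55 and 1.41 CPM in moderate control. LOC_Os02g11070 was not called on moderate day 4 (log2 fold change 1.38, edgeR adjusted p = 0.127). In the severe course it had 4.20, 2.71 and 1.11 CPM in drought and 2.16, 107.3 and 29.7 CPM in control. Only severe control libraries 2 and 3 were high, and the difference of 5.47 (SE 0.81, edgeR adjusted p = 1.9e-07) was 1.06 without them (adjusted p = 0.988). LOC_Os01g53920 had 3.87, 3.94 and 7.22 CPM in moderate drought and 1.91, 1.05 and 2.27 CPM in moderate control, and its severe controls were likewise at 1.38, 64.4 and 35.4 CPM, with severe drought at 2.68, 2.93 and 1.30 CPM. Its difference of 5.36 (SE 0.88) was 0.77 without severe control libraries 2 and 3. This gene was not called on moderate day 4 either (log2 fold change 1.53, edgeR adjusted p = 0.1055).

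Under the same conditions the largest negative difference was that of LOC_Os05g01370. It had 3.09, 3.43 and 2.91 CPM in moderate drought and 14.1, 8.58 and 18.6 CPM in moderate control. This gene fell on day 4 of the moderate course by 2.12 on the log2 scale (edgeR adjusted p = 0.00028), while its severe libraries lay at 5.54, 3.57 and 2.97 CPM in drought and 5.90, 2.26 and 3.44 CPM in control, which overlapped. The difference between the courses was -2.14 (SE 0.56, edgeR adjusted p = 0.0065), and -1.57 (adjusted p = 0.988) without severe control libraries 2 and 3. Without severe drought library 1 or severe control library 2 alone it was -1.86 and -1.90 (adjusted p = 0.0545 and 0.0553). The moderate control mean of LOC_Os05g01370 on day 4, 13.8 CPM, was the highest of its moderate days. On days 3 and 5 that mean was 8.03 and 4.97 CPM, and the moderate log2 fold change was -0.30 and 0.14. LOC_Os02g55134 had 2.53, 2.56 and 1.96 CPM in moderate drought and 4.13, 4.46 and 3.79 CPM in moderate control, against 6.43, 4.36 and 2.69 CPM in severe drought and 2.36, 1.97 and 2.35 CPM in severe control. Its difference was -1.82 (SE 0.51, edgeR adjusted p = 0.012), and -1.75 (adjusted p = 0.988) without those 2 libraries, where a single severe control was left. Without severe drought library 1 or severe control library 2 alone it was -1.49 and -1.75 (adjusted p = 0.0971 and 0.0523). The moderate day 4 effect of LOC_Os02g55134 itself was -0.82 (edgeR adjusted p = 0.112) and was not called. With edgeR on the 12 libraries alone, the differences of these 4 genes were 5.49, 5.38, -2.14 and -1.81, and none was called (adjusted p = 0.184 for each), while DESeq2 on the same libraries called all 4 (adjusted p from 0.00543 to 0.00936).

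**Figure D5:**
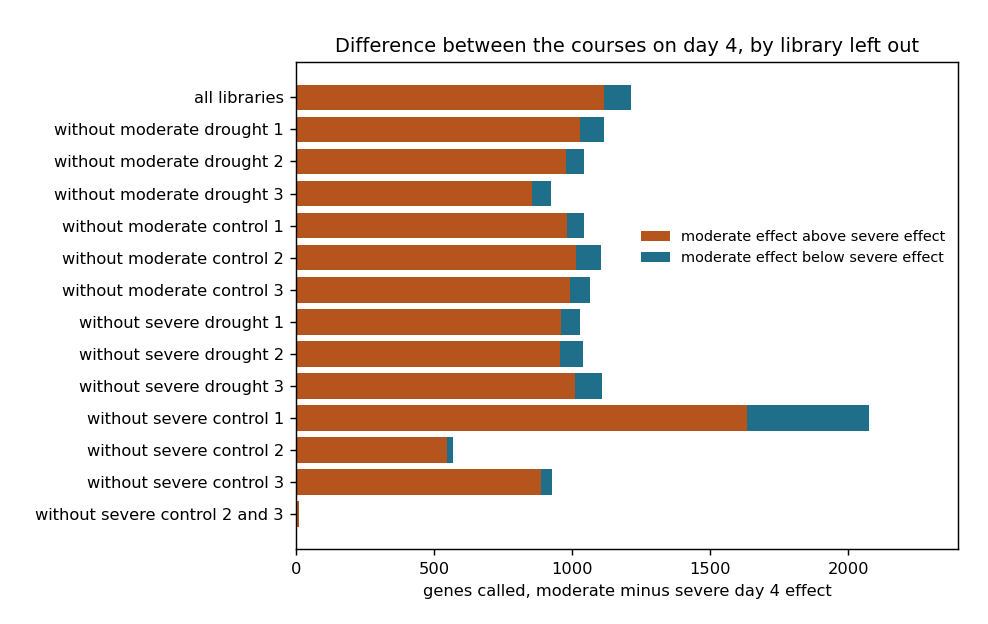
Number of genes called for the moderate minus the severe effect of day 4, with all libraries and with libraries left out, split by whether the moderate effect was above (orange) or below (blue) the severe effect. The bar is 1212 with all libraries, 568 without severe control library 2, 2075 without severe control library 1 and 9 without severe control libraries 2 and 3.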

How the data were processed

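Polyadenylated leaf RNA was made into libraries with a kit that keeps the strand, per the labels' protocols. The authors deposited raw counts per gene in 1 table. The submitters' processing notes name STAR as aligner, featureCounts 2.0.0 as counter and IRGSP-1.0 as build. For the strand setting, reads with several matches and the release of STAR, the answer is not given in the sources used here, so overlapping, antisense and near-identical genes can share counts. Columns were assigned by name, 4 columns without a sample in the labels were left out, and no columns were identical.

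Genes were kept by filterByExpr (minimum count 10, minimum total 15), which left 19338. Counts were scaled by TMM and fitted in edgeR 4.0.16 (R 4.3.3; glmQLFit, glmQLFTest) over 52 groups of course, arm and day in 156 libraries, with 104 residual degrees of freedom. "Called" means a Benjamini-Hochberg adjusted p below 0.05 over all genes tested, and "rose" and "fell" mean called higher or lower in drought. A standard error is the size of the log2 fold change divided by the root of its F. CPM uses TMM-scaled totals, and log2 CPM a prior count of 2. Correlations between libraries used genes whose mean log2 CPM reached 3. The procedure was tested on simulated data.

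Named for a contrast were the 2 genes in each direction with the largest value, provided that they were called, had a mean log2 CPM of 1 or more and no overlap between the arms on moderate day 4. Genes of one sign on all 24 days, and LOC_Os01g57960, were added after values were seen. The comparison and the choices were made with earlier results of these data known. Alternatives were DESeq2 size factors, no filter, edgeR alone or DESeq2 1.42.0 with fewer libraries, counts thinned to 14.1 M (mega counts), a replicate block and leaving out single libraries. Leaving out severe libraries and the block on 6 libraries were added after the data were examined.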

Additional observations from a re-analysis of the deposited data

Results flagged for a closer look

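The difference between the courses on day 4, tested as the moderate minus the severe effect, stood out because the test of the difference itself called 1212 genes. LOC_Os02g11070 and LOC_Os01g53920 had differences of 5.47 and 5.36 on the log2 scale, and LOC_Os05g01370 and LOC_Os02g55134 had differences of -2.14 and -1.82. The first 2 genes were high in severe control libraries 2 and 3 alone, at 107.3 and 29.7 CPM for LOC_Os02g11070 and 64.4 and 35.4 CPM for LOC_Os01g53920. For LOC_Os05g01370 and LOC_Os02g55134 the estimates without those 2 libraries, -1.57 and -1.75, were of similar size but not called.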

How the results depend on the processing

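The 1757 calls of day 4 became 1744 with DESeq2 size factors, 1703 with the replicate number as a block, 1017 with no filter (41413 genes tested), 3314 with edgeR and 3308 with DESeq2 on the 6 libraries alone, 3090 after thinning to 14.1 M (mega counts) and 2809 with a replicate block on the 6 libraries, and 441 to 1200 without 1 library. In each of these fits the calls shared with the 1757 kept their direction, 1569 of them in DESeq2, 1427 with the block on the 6 libraries and 432 without drought library 3. The block answers no pairing in the labels: same-numbered libraries deviated together with r of 0.38, -0.06 and -0.02. The tests of day 4 against days 3 and 5, the other days and day 0 called 0 genes whichever of the 6 libraries was left out, 1, 1 and 1 with edgeR and 6, 5 and 80 with DESeq2 on the libraries compared. The 1212 calls of the course difference became 1008 with the block, 0 with edgeR (2807 genes at an unadjusted p below 0.05) and 607 with DESeq2 on the libraries compared, 568 to 2075 without 1 library and 9 without severe control libraries 2 and 3. The 3134 calls of severe day 4 became 979 to 4578 without 1 library and 18 without those 2. The cause of these shifts was not tested. No named gene reversed its direction in any alternative run of the contrast followed for it. DESeq2 on the 6 libraries gave no adjusted p for LOC_Os09g36700, so that run is not covered for this gene. Without severe control libraries 2 and 3 some severe day 4 effects did change sign. That of LOC_Os02g11070 went from -4.09 to 0.31, that of LOC_Os01g53920 from -3.83 to 0.76 and that of LOC_Os05g01370 from 0.016 to -0.55.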

Other observations

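All 11684 identifiers numbered for chromosomes 10 to 12 (20.9% of the table) and all 185 identifiers of another form were at 0 in every library, against 41413 of 44117 with a count for chromosomes 1 to 9.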
